A study of Mus musculus with 8 samples.

Results

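The genes described here make, package, take up precursors for and break down acetylcholine, and 10 of them were chosen by name from the 20284 genes that the array's probes could be assigned to. They are Chat, Slc18a3, Slc5a7, Ache, Colq, Slc44a1, Slc44a2, Chka, Chkb and Acly, and they were measured by 18 probes, each matched to its gene through the RefSeq accession in the scanner files. RNA came from natural killer (NK) cells of mouse spleen, enriched magnetically and then divided by a ChAT-eGFP reporter, a green fluorescent protein that marks cells expressing choline acetyltransferase. There were 4 ChAT+ samples (ChAT-P1 to ChAT-P4) and 4 ChAT- samples (ChAT-N1 to ChAT-N4), each a pool of the cells of 2 to 4 mice and each run on its own 1-colour Agilent array. Both groups came from the reporter mice, no treatment is named in the labels, and the strain, age and sex of the mice and the construct of the reporter are not given in the sources used here. Pools may have shared mice, which the labels leave unsaid, so a p-value here covers only the variation among these pools, part of which may be technical. The ChAT+ arrays occupied 1 slide, scanned once, and the ChAT- arrays another, so an effect of slide or scan cannot be told apart from one of the reporter.

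Acetylcholine is made in the cytoplasm by choline acetyltransferase, the product of Chat, from choline and acetyl-CoA. The vesicular acetylcholine transporter, the product of Slc18a3, loads it into vesicles, and acetylcholinesterase, the product of Ache, splits it after release. In neurons the choline is recovered by the high-affinity transporter encoded by Slc5a7, whereas most other cells take choline up through the choline transporter-like proteins encoded by Slc44a1 and Slc44a2, and choline kinases (Chka, Chkb) divert it into phosphatidylcholine. Outside the nervous system, Chat is known to be expressed in subsets of T cells and B cells, where acetylcholine acts as a local signal.

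Slc18a3 lies inside Chat, an arrangement known as the cholinergic gene locus, in which both genes are read in the same direction. The promoter windows of both genes, taken from RefSeq on GRCm38.p6 and covering 250 bases before to 50 bases after the annotated start, are shown because these were the 2 members that passed the test. The Chat window is chr14:32465860-32466159 and the Slc18a3 window is chr14:32464801-32465100, both on the minus strand, and the annotated starts lie 1059 bases apart. Capitals mark matches, on either strand, to the E box CANNTG and the GC box GGGCGG.
Chat: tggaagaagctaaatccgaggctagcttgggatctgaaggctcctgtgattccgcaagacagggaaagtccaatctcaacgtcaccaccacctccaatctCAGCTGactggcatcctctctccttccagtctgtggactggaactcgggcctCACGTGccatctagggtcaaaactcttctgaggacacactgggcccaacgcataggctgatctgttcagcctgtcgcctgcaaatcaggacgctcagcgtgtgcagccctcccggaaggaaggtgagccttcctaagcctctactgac
Slc18a3: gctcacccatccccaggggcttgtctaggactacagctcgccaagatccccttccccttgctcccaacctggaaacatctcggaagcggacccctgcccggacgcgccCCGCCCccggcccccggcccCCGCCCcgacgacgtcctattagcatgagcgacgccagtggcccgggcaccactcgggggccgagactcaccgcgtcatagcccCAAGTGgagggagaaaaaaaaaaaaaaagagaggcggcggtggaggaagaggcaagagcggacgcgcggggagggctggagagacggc
The Chat window held 2 E boxes and 0 GC boxes, and the Slc18a3 window held 1 E box and 2 GC boxes. An E box occurred in 72.3% and a GC box in 35.7% of all 32851 promoter windows of this length, and a match is no more than a run of these letters. The TATA box TATAAA, the cAMP response element TGACGTCA, the AP-1 element TGANTCA and the GATA element AGATAA were searched in the same way and none was found in either window.

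Signals were expressed as log2 of the processed spot intensity relative to the 75th percentile of the same array, and a difference is ChAT+ minus ChAT- on that scale. Between 50.2% and 63.2% of spots per array were well above background, and 0 were saturated. Limma was run on probes that the scanner software marked as well above background on 4 or more of the 8 arrays, with 1 probe standing for each gene, with Benjamini-Hochberg adjustment over 13607 genes and a threshold of 0.05. Of these genes 2.81% were called higher and 3.15% lower, or 5.96% in either direction. The groups did not overlap, higher in ChAT+ pools, for 9.37% of genes and, lower, for 6.14%. The NK cell markers checked (Ncr1, Klrb1c, Klrk1, Klrd1, Eomes, Tbx21, Prf1, Gzma, Gzmb, Il2rb, Itga2 and Klra8) were well above background on all 8 arrays, as were B cell markers such as Pax5 and Ms4a1 and the T cell receptor subunit gene Cd3e. A fraction of cells of another kind and the RNA content of each cell cannot be told apart in pooled samples.

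Of the 9 acetylcholine genes that were tested, 2 were called higher in ChAT+ pools (Chat and Slc18a3), 0 were called lower, and 7 did not pass, where 5.96% of all genes were called in either direction. The direction of Chat is set by the sorting, and Slc18a3 met the filter on dim probes through the ChAT+ arrays. The count is therefore not a separate finding about the pathway. Slc5a7 was not tested because neither of its probes rose above background. With limma p not adjusted, 3 higher and 1 lower had p under 0.05, the added genes being Colq and Slc44a1, against 24.8% of all genes in either direction. The ranges of ChAT+ and ChAT- pools did not overlap for 3 of the 9, all higher in ChAT+ pools (Chat, Slc18a3 and Colq). Over all genes tested, 9.37% were higher without overlap and 6.14% lower. The second Colq probe did not separate the groups. The median difference of the 9 genes was 0.057, beside 0.026 for all genes tested.

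**Figure D1:**
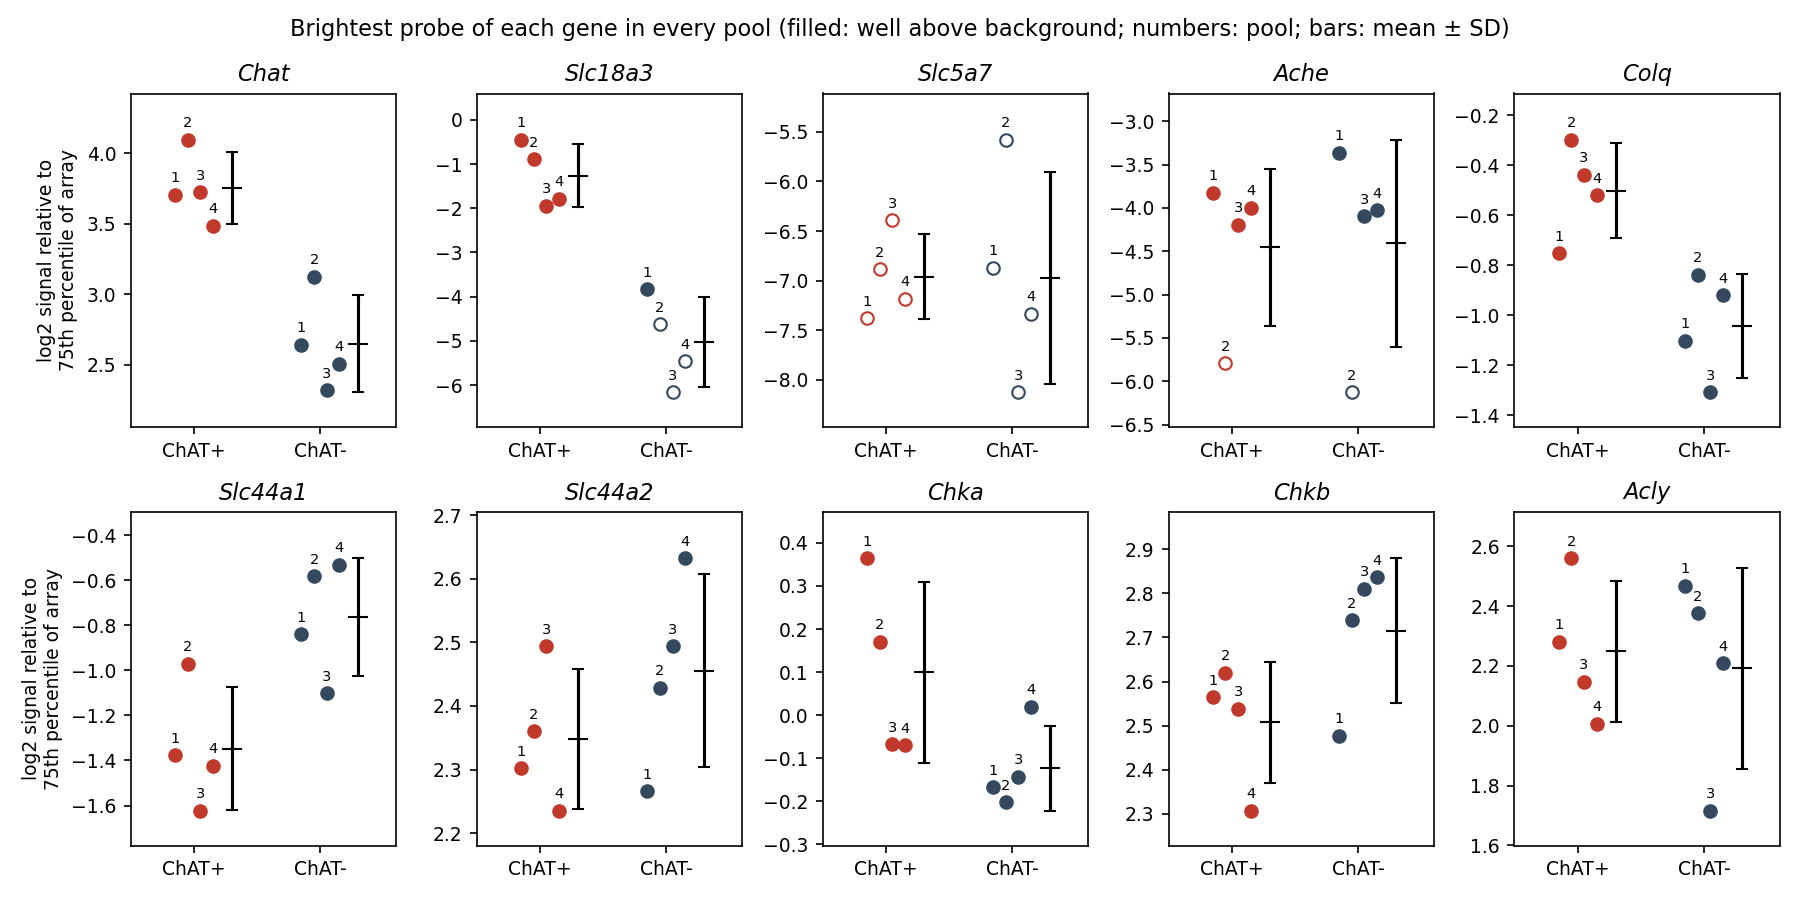
Each panel plots, for the brightest probe of 1 gene, the log2 signal relative to the 75th percentile of the array in each ChAT+ pool (left) and ChAT- pool (right); numbers are pool numbers, filled points are well above background, and bars are the mean ± SD of 4 pools. The ChAT+ and ChAT- points are apart for Chat, Slc18a3 and Colq, and all points of Slc5a7 are open.

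Chat encodes the enzyme that joins choline and acetyl-CoA, and its expression is what the reporter sort selects for, so its direction is set by the sorting and is not a separate finding. Its 1 probe gave log2 signals of 3.70, 4.10, 3.72 and 3.49 in ChAT-P1 to ChAT-P4, against 2.64, 3.12, 2.32 and 2.51 in ChAT-N1 to ChAT-N4. The lowest ChAT+ pool stood above the highest ChAT- pool, and the pool numbered 2 was the highest in both groups. The difference was 1.10 (SE 0.20, limma adjusted p = 0.0201), or 2.15-fold with a 95% interval of 1.57 to 2.94. An exact two-sided permutation of the 8 arrays gave p = 0.0286, which is the lowest value possible with 4 per group.

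Chat signal was well above background in all 4 ChAT- pools. The unscaled intensities there lay between 11969 and 18181, and those of ChAT+ pools between 24343 and 30849, with a scanner error estimate of 10.0% per spot. The array sets no scale that runs between probes, so these intensities cannot be read as a number of transcripts. The call was lost without ChAT-P3 (limma adjusted p = 0.0623), without ChAT-N4 (0.0646), without both arrays numbered 3 (0.118) and with no filter on dim probes (0.0532), while the difference stayed between 0.99 and 1.32 over all 21 alternatives.

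Markers of other lymphocytes differed between the groups as well. Counts for the marker lists stand beside 5.96% of all genes called and 24.8% with an unadjusted p under 0.05, in either direction. Of 12 B cell markers, 6 were called higher in ChAT+ pools (among them Ms4a1, Pax5 and Ebf1) and 0 lower, and their summed signal, in multiples of the 75th percentile, was 110.7 to 143.2 in ChAT+ pools against 74.3 to 97.3 in ChAT- pools. Of 12 markers of innate lymphoid cells of types 2 and 3 and of NKT cells, 7 were called higher (among them Il17a, Il17f, Il13 and Areg) and 0 lower, with summed signals of 20.0 to 30.6 against 13.1 to 14.8. The 5 not called were Gata3 (difference -0.21), Zbtb16 (0.22), Il1rl1 (0.33), Il7r (0.40) and Il23r (1.39). Of 12 T cell markers, 0 were called by limma, 1 of them lower at an unadjusted p under 0.05, and the summed signals overlapped at 41.4 to 68.9 in ChAT+ and 50.3 to 68.9 in ChAT- pools. None of these 3 lists had a marker whose brightest probe was below background on every array.

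Other lists were lower or not called in ChAT+ pools. Of 12 NK cell markers, 3 were called lower (Klrb1c, Klrk1 and Prf1), with summed signals of 147.5 to 212.4 in ChAT+ and 207.2 to 256.4 in ChAT- pools. At an unadjusted limma p under 0.05, 9 of the 12 were lower and 0 higher, and by mean 11 were lower and 1 higher. Of 7 tested basophil and mast cell markers, 5 were called lower, with summed signals of 0.901 to 3.82 against 9.12 to 43.5. Of those 5, 1 was well above background on 0 of 4 ChAT+ and 4 of 4 ChAT- arrays. It met the filter on dim probes through the ChAT- arrays, the group in which it was higher. Among erythroid markers 3 of 6 tested were called lower, with sums of 15.2 to 16.7 in ChAT+ and 23.2 to 33.1 in ChAT- pools. The brightest of them was Car2, at mean log2 signals of 3.23 in ChAT+ and 3.82 in ChAT- pools. Hbb-bt went the other way, with a difference of 0.41, and was not called. Of 6 tested neuronal markers 0 were called by limma, 1 on each side with an unadjusted p under 0.05. Their sums overlapped at 24.7 to 37.7 in ChAT+ and 29.0 to 42.9 in ChAT- pools. Those sums were mostly Snap25, at mean log2 signals of 4.94 in ChAT+ and 5.15 in ChAT- pools. The cholinergic neuron factors Isl1 and Lhx8 were well above background on 0 of 8 arrays. Gbx1, of the same list, was so on 3 of 4 ChAT+ and 4 of 4 ChAT- arrays, with a difference of -0.26 (limma adjusted p = 0.462). Counts of calls in these lists moved with single arrays. The basophil and mast cell count was 2 without ChAT-N4, 3 without ChAT-N3 or ChAT-P3 and 7 without ChAT-N2, and the NK cell count was 5 without ChAT-P2. Without both arrays numbered 3, calls fell to 1 for B cell, 4 for innate lymphoid and NKT, 1 for NK cell, 1 for basophil and mast cell and 1 for erythroid markers. The part of the B cell, innate lymphoid and other marker differences in the results for Chat and Slc18a3 was not tested.

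Slc18a3 encodes the transporter that fills vesicles with acetylcholine, and it showed the larger difference of the 2 called genes. Its probe gave log2 signals of -0.45, -0.89, -1.94 and -1.78 in ChAT-P1 to ChAT-P4, against -3.84, -4.63, -6.16 and -5.47 in ChAT-N1 to ChAT-N4. The lowest ChAT+ pool was above the highest ChAT- pool, the pools numbered 1 were the highest of each group, and those numbered 3 the lowest. Unscaled intensities were 480 to 1739 in ChAT+ pools and 43.7 to 149 in ChAT- pools. The difference was 3.76 (SE 0.51, limma adjusted p = 0.00797), or 13.5-fold with a 95% interval of 6.04 to 30.3. The exact two-sided permutation test gave p = 0.0286, again the lowest value possible with 4 per group. The fold and its interval rest on ChAT- values near background, as described next.

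The probe was well above background on 4 of 4 ChAT+ arrays and on 1 of 4 ChAT- arrays, ChAT-N1. It therefore met the filter on dim probes through the ChAT+ arrays, the group in which it was higher. The lowest intensity of any probe well above background was 40.2 to 75.7 per ChAT- array, so the ChAT- values lie near the limit of measurement and the size of the difference depends on how background is treated. With a normexp background correction and quantile normalization the difference was 2.29 (SE 0.28, adjusted p = 0.00397). The call held under all 20 alternatives that could give a value, with differences of 2.29 to 4.15 and adjusted p between 3.80e-05 and 0.0448.

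Because Slc18a3 lies within Chat, the signals of both genes were also compared inside each array, where scaling between arrays cancels. Slc18a3 minus Chat was -4.15, -4.99, -5.66 and -5.27 on the log2 scale in ChAT-P1 to ChAT-P4, against -6.48, -7.75, -8.48 and -7.97 in ChAT-N1 to ChAT-N4. Every ChAT+ pool was above every ChAT- pool, and the mean difference was 2.65. Because Slc18a3 was not well above background in ChAT-N2, ChAT-N3 and ChAT-N4, this value rests on background signal there and is given without a test. With normexp correction the gap between the Slc18a3 and Chat differences was 1.11. Chat reporter lines made with a large genomic transgene are known to carry extra copies of Slc18a3, the labels do not name the line used, and a part of such copies in this result was not tested.

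The neighbours of the locus on chromosome 14 were not called. Of the 5 protein-coding genes on each side of Chat in the RefSeq gene order, 5 were tested, and limma called 0 higher and 0 lower, while 2, Parg and 1700024G13Rik, were higher at an unadjusted p under 0.05. Over all genes, 5.96% were called and 24.8% had an unadjusted p under 0.05, in either direction. Differences of the tested neighbours ran from -0.072 for Ncoa4 to 0.55 for 1700024G13Rik, beside 1.10 for Chat and 3.76 for Slc18a3. The neighbour 1700024G13Rik had a log2 signal of -2.95 ± 0.31 in ChAT+ and -3.51 ± 0.30 in ChAT- pools (SD, n = 4 each; 95% interval of the difference 0.10 to 1.00, limma adjusted p = 0.13). The neighbour on the other side, Ercc6, a DNA repair gene, had -4.06 ± 0.36 in ChAT+ and -4.23 ± 0.14 in ChAT- pools (SD, n = 4 each; interval -0.24 to 0.59, adjusted p = 0.603). On that side the next 4 genes were below the filter on dim probes, so the locus was read over a short stretch only.

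**Figure D2:**
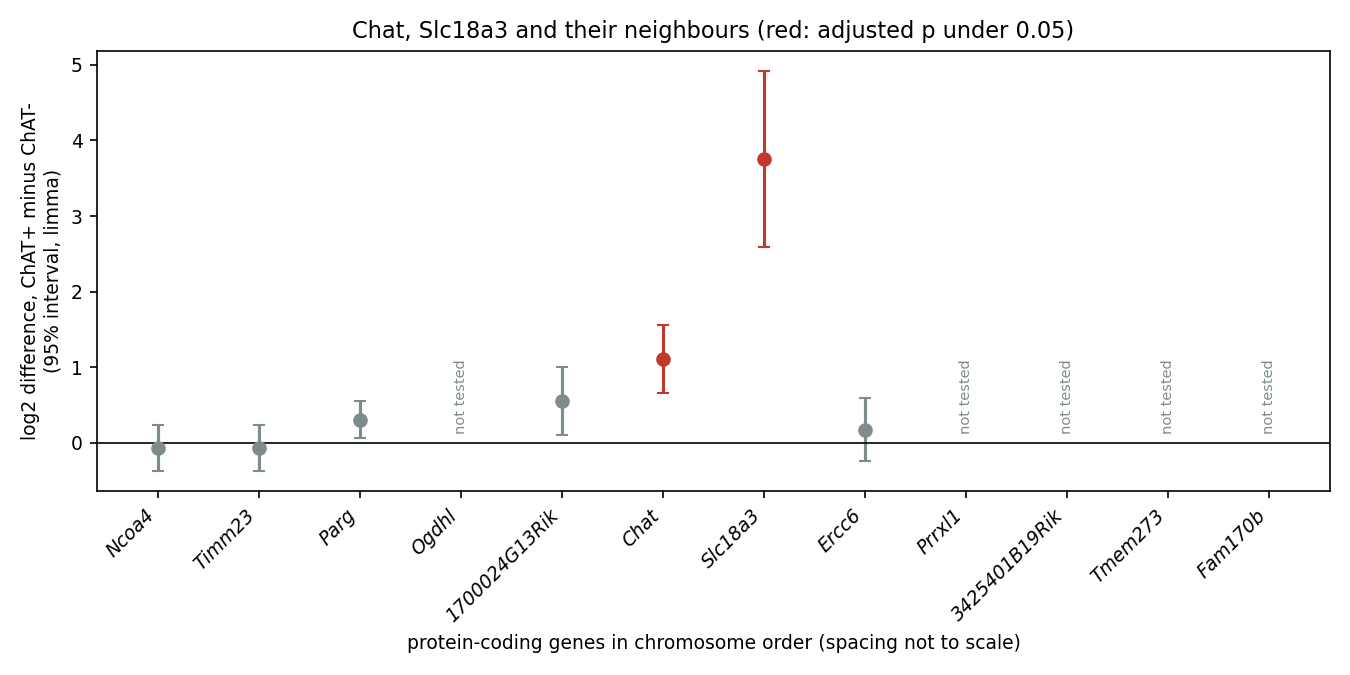
The y axis is the log2 difference of ChAT+ minus ChAT- pools with its 95% limma interval for Chat, Slc18a3 and the 5 protein-coding genes on each side, in chromosome order and not to scale on the x axis. Only Chat at 1.10 and Slc18a3 at 3.76 (red) passed the adjusted threshold, and 5 neighbours were below the filter on dim probes.

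Choline uptake was read through 3 members. Slc5a7, the high-affinity choline transporter of cholinergic neurons, was well above background on 0 of 8 arrays by either of its 2 probes. The brighter probe had unscaled intensities of 14.2 to 22.0 in ChAT+ and 11.2 to 43.7 in ChAT- pools, so no fold is given, and a level below this limit was not detectable. Slc44a2, which encodes a choline transporter-like protein of the plasma membrane and mitochondria, was measured by 1 probe at log2 signals of 2.24 to 2.49 in ChAT+ and 2.27 to 2.63 in ChAT- pools. Those ranges overlapped, and the difference was -0.11 (SE 0.12, 95% interval -0.38 to 0.17, limma adjusted p = 0.624).

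Slc44a1, which encodes the main choline transporter-like protein of non-neuronal cells, gave readings that depended on the probe. Its brightest probe, annotated to a different transcript variant from the other 2, had log2 signals of -1.38, -0.97, -1.62 and -1.42 in ChAT-P1 to ChAT-P4, against -0.84, -0.58, -1.10 and -0.53 in ChAT-N1 to ChAT-N4. The ChAT+ pools were the lower ones apart from ChAT-P2, which overlapped ChAT-N3. The difference was -0.58 (SE 0.18, 95% interval -0.99 to -0.17, limma adjusted p = 0.0909), which did not pass, although it did with normexp correction (adjusted p = 0.0369). The second probe had a difference of 0.27 (95% interval -0.097 to 0.64) and the third one of -0.19 (-1.07 to 0.68), so the probes of this gene did not point one way.

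On the third Slc44a1 probe, the pools numbered 1 were the highest and those numbered 2 the lowest of both groups, at -3.13 and -4.10 in ChAT+ pools and -2.31 and -4.10 in ChAT- pools. Within each array, the first probe minus the second was 1.37 ± 0.33 in ChAT+ and 2.23 ± 0.51 in ChAT- pools (SD, n = 4 each; exact two-sided permutation p = 0.0571, or 0.152 adjusted over the 8 probe pairs compared). The first and second probes are annotated to different transcript variants, and this unequal reading of them did not pass after adjustment.

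Choline kinase phosphorylates choline as the entry step of phosphatidylcholine synthesis, and it is encoded by Chka and Chkb. Chka was measured by 3 probes, all well above background on all 8 arrays. Its brightest had log2 signals of 0.37, 0.17, -0.068 and -0.070 in ChAT-P1 to ChAT-P4, against -0.17, -0.20, -0.14 and 0.020 in ChAT-N1 to ChAT-N4. ChAT-P1 and ChAT-P2 were above all ChAT- pools, and ChAT-P3 and ChAT-P4 were below ChAT-N4. The difference was 0.22 (SE 0.13, 95% interval -0.080 to 0.53, limma adjusted p = 0.338), and the other probes gave -0.0060 and 0.25, neither called.

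Chkb had 1 probe, at log2 signals of 2.57, 2.62, 2.54 and 2.31 in ChAT-P1 to ChAT-P4, against 2.48, 2.74, 2.81 and 2.84 in ChAT-N1 to ChAT-N4. All ChAT+ pools lay below ChAT-N2, ChAT-N3 and ChAT-N4, and only ChAT-N1 fell among them. The difference was -0.21 (SE 0.13, 95% interval -0.50 to 0.083, limma adjusted p = 0.352). RefSeq also lists a read-through transcript of Chkb and the gene next to it, and the probe may not tell them apart.

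Acly encodes ATP citrate lyase, which makes cytosolic acetyl-CoA from citrate. Its brighter probe had log2 signals of 2.01 to 2.56 in ChAT+ and 1.72 to 2.47 in ChAT- pools, with a difference of 0.057 (SE 0.19, 95% interval -0.38 to 0.49, limma adjusted p = 0.887). The dimmer probe, annotated to another transcript variant, had log2 signals of -2.10 to -1.70 in ChAT+ and -1.86 to -1.37 in ChAT- pools, with a difference of -0.20 (95% interval -0.55 to 0.15). The ranges of the groups overlapped on both probes, which differed in sign.

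Breakdown of acetylcholine was read through Ache, the esterase, and Colq, the collagen tail that anchors the esterase to the basal lamina of the neuromuscular junction. The brighter Ache probe had log2 signals of -3.83, -5.79, -4.19 and -4.00 in ChAT-P1 to ChAT-P4, against -3.37, -6.13, -4.10 and -4.03 in ChAT-N1 to ChAT-N4. It was well above background on 3 of 4 arrays of each group, and the pools numbered 2 were the dim ones in both. The difference was -0.047 with a wide 95% interval of -1.45 to 1.36 (SE 0.62, limma adjusted p = 0.972), which does not exclude a change of either sign. The other Ache probe was well above background on 1 ChAT+ and 2 ChAT- arrays and was not tested.

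Colq came closest to the threshold among the genes not called. Its brighter probe had log2 signals of -0.75, -0.30, -0.44 and -0.52 in ChAT-P1 to ChAT-P4, against -1.10, -0.84, -1.31 and -0.92 in ChAT-N1 to ChAT-N4. Every ChAT+ pool was above every ChAT- pool. The difference was 0.54 (SE 0.15, 95% interval 0.20 to 0.88, or 1.15 to 1.84-fold), and it missed the threshold at a limma adjusted p of 0.0674, while it passed under quantile normalization (adjusted p = 0.0484) and with normexp correction (0.0337).

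The second Colq probe, annotated to the same transcript, did not show this difference. Its log2 signals were -4.07, -3.61, -3.67 and -3.91 in ChAT-P1 to ChAT-P4, against -3.88, -3.28, -3.71 and -3.46 in ChAT-N1 to ChAT-N4, with a difference of -0.23 (95% interval -0.63 to 0.17). Within each array the first probe minus the second was 3.31 ± 0.066 in ChAT+ and 2.54 ± 0.17 in ChAT- pools (SD, n = 4 each), with no overlap. The exact two-sided permutation test gave p = 0.0286, or 0.152 adjusted over 8 probe pairs, a design in which no pair alone could have passed. With all kept probes of a gene averaged, the Colq difference was 0.15 (limma adjusted p = 0.577), so the reading of this gene rests on which probe stands for it.

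**Figure D3:**
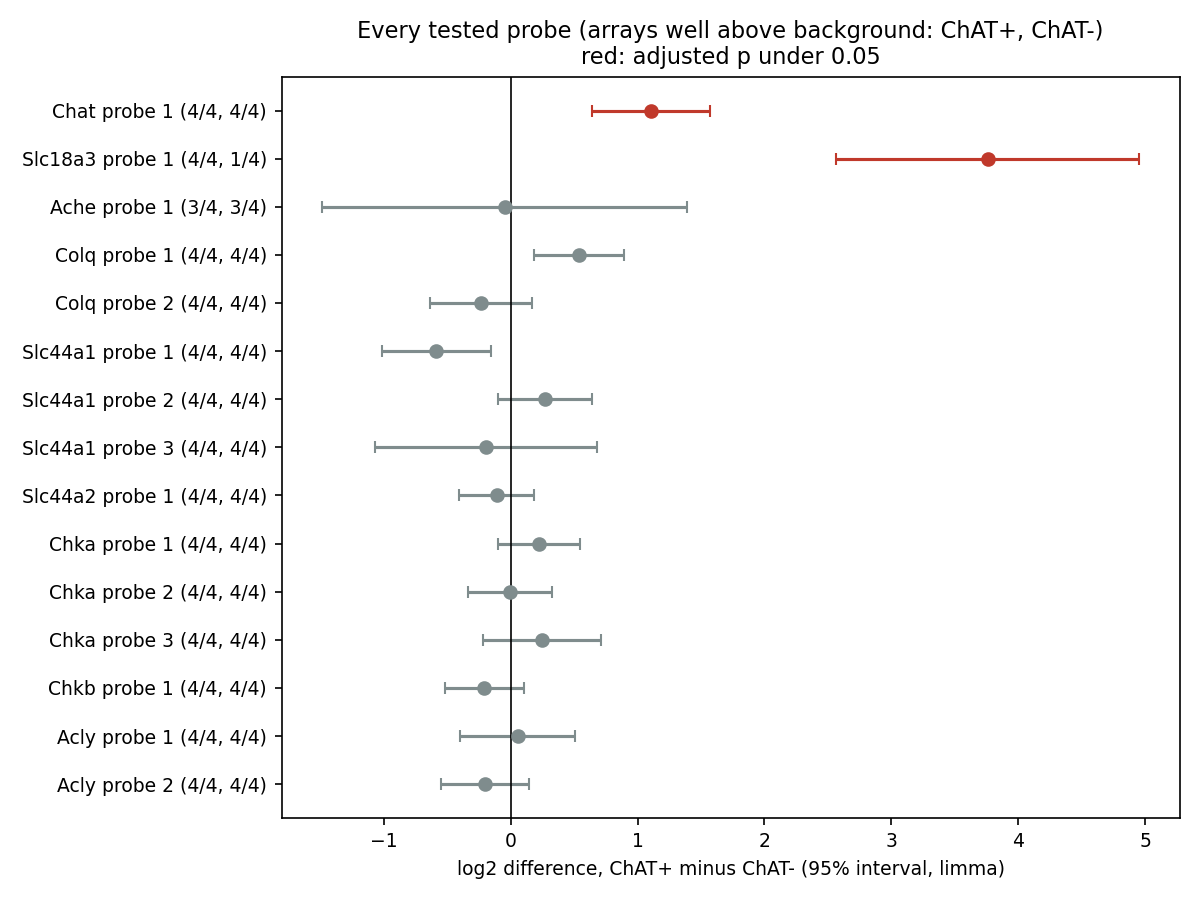
Points are the log2 differences of ChAT+ minus ChAT- pools for each of the 15 tested probes, with 95% limma intervals over all 32086 tested probes; brackets give the arrays well above background in ChAT+ and in ChAT- pools. Only the Chat and Slc18a3 probes (red) passed, and probes of Colq, Slc44a1, Chka and Acly lie on both sides of 0.

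Over probes, 15 of the 18 passed the filter on dim probes, 13 were well above background on all 8 arrays and 2, those of Slc5a7, on none. In the fit over all 32086 kept probes, 1.46% were called higher and 1.64% lower, and of the 15 member probes 2 were called higher and 0 lower. The groups did not overlap for 3 of these probes, all higher in ChAT+ pools, where 7.84% of all probes were higher without overlap and 6.45% lower. Chat had an adjusted p of 0.0333 and Slc18a3 one of 0.0146 in that fit.

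Genes that feed or drain the same pathway were read from 8 further lists holding 67 genes, all on the array, of which 44 were tested. Limma called 0 higher and 0 lower, where 5.96% of all genes were called in either direction. With p not adjusted, 4 were higher and 6 lower at p under 0.05, against 24.8% of all genes in either direction. Counts for the single lists below are to be read beside these shares. The differences lay between -0.85 and 0.77, with a median of 0.061 beside 0.026 for all genes. In 20 alternatives at gene level, 1 call appeared without ChAT-N1, Pld1 as lower, and 4 with pool number as a block.

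Genes listed for steps that supply or use the substrates were not called in either direction. Of 13 tested genes of acetyl-CoA supply 0 were called by limma, although 3 had an unadjusted p under 0.05, 1 of them higher, and their median was 0.082. Acat2, in this list although it uses acetyl-CoA to make acetoacetyl-CoA in the cytosol, was the brightest, with a difference of 0.082 (95% interval -0.21 to 0.37). Of 9 tested genes listed for choline release from phospholipids limma called 0, although 3 had an unadjusted p under 0.05, Pld4 as higher and Pld1 and Pld3 as lower. The brightest, Pld3, had -0.47 (limma adjusted p = 0.126). Pld3 and Pld4 were listed as phospholipase D family members, and whether they release choline was not tested. Of 5 tested genes of phosphatidylcholine synthesis limma called 0, with 0 at an unadjusted p under 0.05, and Pcyt1a, which encodes the rate-limiting enzyme of that route, had -0.42 (95% interval -0.86 to 0.018, adjusted p = 0.217).

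Other transporters and enzymes were not called either. Of 6 tested choline and cation transporters 0 were called by limma and 0 had an unadjusted p under 0.05, and Flvcr1, a heme exporter also known to carry choline, had a difference of 0.28 (95% interval -0.024 to 0.58). Of the other choline transporter-like genes, Slc44a5 was well above background on all 8 arrays with a difference of 0.30 (adjusted p = 0.525), and Slc44a3 and Slc44a4 on 0 of 8. Among 3 tested vesicular transporters, Slc17a9, which loads ATP into vesicles, had 0.33 (adjusted p = 0.171), and 2 were higher at an unadjusted p under 0.05. Aldh7a1, of choline oxidation, had 0.13, and 0 of 3 tested genes of that list were called, with 1 lower at an unadjusted p under 0.05. Bche, which encodes the second cholinesterase, was well above background on 1 of 8 arrays and Prima1, the membrane anchor of acetylcholinesterase, on 0.

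Receptors for acetylcholine were mostly below background in these cells. Of 21 receptor genes, 13 were well above background on no array by their brightest probe and 5 were tested (Chrna6, Chrna9, Chrnb1, Chrm1 and Chrm4). Limma called 0 of them, and 1, lower, had an unadjusted p under 0.05. Chrnb1, the brightest, had a difference of -0.075 (95% interval -0.31 to 0.16), and the nicotinic alpha 7 receptor gene Chrna7 was well above background on 0 of 8 arrays.

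**Figure D4:**
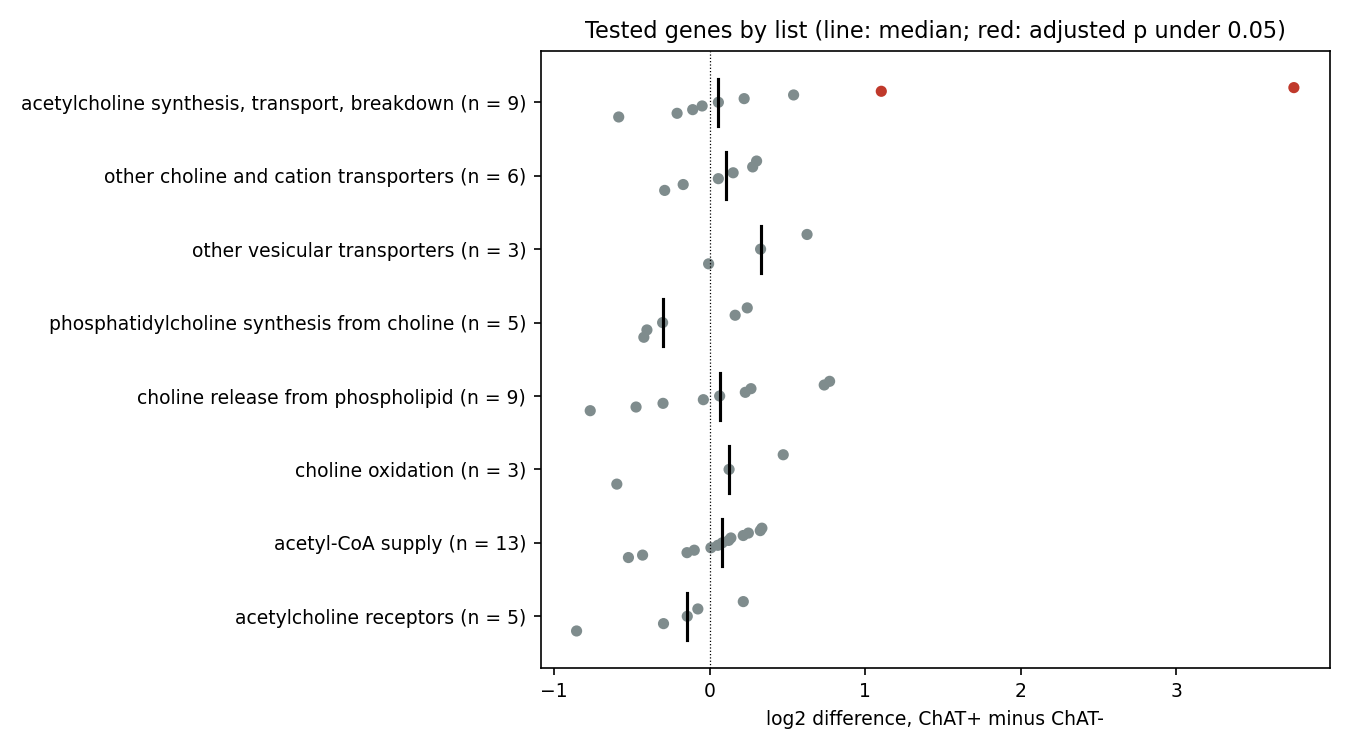
Each point is the log2 difference of ChAT+ minus ChAT- pools for 1 tested gene, grouped by list, with the number of tested genes in brackets and a line at each list's median. Chat and Slc18a3 (red) are the called genes, and all 44 genes of the other lists lie between -0.85 and 0.77.

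The genes whose profile over the 8 arrays was most like that of a called member were found by the root mean square difference between log2 values centred per gene. For Chat these were Tgtp1 (0.20), Dpp4 (0.21), Ifi209 (0.21), Cd86 (0.22) and Lrrc71 (0.22), where the median over all genes was 0.64. Their log2 differences were 0.86 to 1.16, and all 5 were called higher in ChAT+ pools. Being chosen for likeness to a called gene on the same arrays sets this direction, so it is not a separate finding. For Slc18a3 they were Areg (0.81), Il17f (0.85), Ccr4 (0.89), Il17rb (0.91) and Trpm6 (0.93), where the median over all genes was 2.02. These 5 were also called higher, with log2 differences of 2.44 to 3.74, which the choice by likeness to Slc18a3 again sets. Ccr4 and Trpm6 were, like Slc18a3, well above background on 1 of 4 ChAT- arrays. Chat and Slc18a3 differed from each other by 1.48 on this measure. Likeness to Slc18a3 includes its values in ChAT-N2 to ChAT-N4, which were not well above background, so the order of these genes is loose.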

How the data were processed

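RNA of 8 sorted NK cell pools was measured on 1-colour (Cy3) arrays, from 100 ng of total RNA amplified by in vitro transcription, per the labels' protocols. The deposited scanner files hold spot intensity on a linear scale, made by Agilent Feature Extraction 11.5.1.1 and background-subtracted within each array, per the file headers. A table deposited by the authors gives log2 values of 31942 probes. Each of its columns equals log2 of the processed intensity less a constant within 0.0066 of that array's 75th percentile, so it is not centred per gene, and its column medians lie between -0.72 and -0.63.

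Spots for quality control and 1344 values marked as outliers by the scanner software were omitted, and log2 intensities of the spots of a probe were averaged, which gave 55681 probes. Of these, 26762 carried 1 gene symbol through an unversioned RefSeq accession (GRCm38.p6 table), 0 several, and 28919 none. The array design is annotated on mm9, so no gene coordinates are given other than those of the RefSeq promoter windows. Values are log2 intensity minus the 75th percentile over all non-control probes. A probe was kept if well above background on 4 or more of the 8 arrays (32086 probes), and the brightest stood for its gene. The number of arrays limits the precision.

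ChAT+ pools were compared with ChAT- pools by limma 3.58.1 in R 4.3.3 (lmFit, eBayes, two-sided), without a block. The procedure was run on simulated data with independent noise for each gene and array. Those data held no effect of slide or pool number, so they do not test the procedure against either. All probes of the 10 genes are described, as are the brightest tested gene of each list without a call, the 5 genes on each side of Chat and the 5 closest profiles. The members, lists and tests were chosen with earlier results of these data known. Alternatives changed the scaling, background correction, filter, probe choice, variance model, array weights and block, used the deposited table, or left out arrays. Some marker genes that count in the lists are not reported here by name.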

Additional observations from a re-analysis of the deposited data

Results flagged for a closer look

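The second probe of Acly, the ATP citrate lyase gene, stood apart in 1 pool. Its log2 signal was -2.10 in ChAT-P2, while the other 3 ChAT+ pools lay between -1.74 and -1.70, a gap of 0.90 of the whole range of the group. Of 74 groups of 4 values examined in this way, for all member probes and the other genes described with values, 1 was set apart, where chance would give 3.7. The brighter Acly probe was highest in the same pool, at 2.56.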

How the results depend on the processing

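Slc18a3 kept its call and direction in all 20 alternatives that gave a value. Chat kept its direction in all 21 and its call in 17, and its difference was 1.10 with no filter on dim probes and 1.00 without both arrays numbered 3 (an alternative chosen after seeing the data), both not called. With 1 array left out the Chat difference ranged from 0.99 to 1.26 and was not called without ChAT-P3 or ChAT-N4, that of Slc18a3 from 3.38 to 4.15, members called higher from 1 to 2 and lower from 0 to 0. Members called higher numbered 1 with no filter, with a filter at all 8 arrays (where Slc18a3 was not tested) and without both arrays numbered 3, and members called lower numbered 1, Slc44a1, with normexp correction and with pool number as a block.

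Over all genes, 383 were called higher and 428 lower. Counts ranged from 94 to 306 higher and from 116 to 425 lower with 1 array left out. They were 211 higher and 119 lower under median scaling, which moved the median difference of all genes to 0.24, so that 3 small differences changed sign (Ache 0.17, Slc44a2 0.11 and Chkb 0.0085) without rising above that shift. With no filter 98 were higher and 125 lower, and without both arrays numbered 3 there were 21 and 35. Genes higher numbered 649 with normexp correction, 577 with array weights and 249 with each probe tested on its own. The small Ache difference also changed sign under quantile normalization (0.22), normexp (0.041), and without ChAT-P2 (0.40), ChAT-N1 (0.30), ChAT-N3 (0.055) or ChAT-N4 (0.078), and ranged from -0.62 to 0.40 with 1 array left out. That of Acly did so with kept probes averaged (-0.073), without ChAT-P2 (-0.047), ChAT-N3 (-0.10) or both arrays numbered 3 (-0.068), and ranged from -0.10 to 0.15 with 1 array left out. None of these was called in either direction, and the cause was not tested.

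With pool number as a block, 1002 genes were higher and 1340 lower, and Colq (limma adjusted p = 0.0331) and Slc44a1 (0.0241) were called. In that fit the Ache difference stayed at -0.047, with an SE of 0.15 (limma adjusted p = 0.864). Deviations of same-numbered pools from their group means correlated over genes at 0.54, 0.66, 0.52 and 0.032 for numbers 1 to 4, and ChAT-P4 correlated more with ChAT-N3 (0.23), so the numbers were not taken as pairs. The labels do not say that a number marks shared mice or a shared day, and on each slide the number is also the array position. Slide as a block was not run, because each slide holds 1 group. For Slc5a7, Ache and Slc18a3 in ChAT- pools, signal over background limits what can be seen.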

Other observations

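The promoter windows of 9 members are held in the RefSeq table used here, as 11 windows of 300 bases. In 9 of the 11 the share of G and C was above the median of all windows, 52.7%. It was 80.0% and 79.7% for Slc44a1, 74.0% for Ache and 68.7% for both Acly and Chka, while Slc5a7, whose probes were below background on all arrays, had 44.7% with 1 CpG. Chat, at 55.7% with 10 CpG, and Slc18a3, at 67.0% with 27 CpG, lay between these. These are counts of letters and were not tested against expression.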
